A study of Schizosaccharomyces pombe with 6 samples.

Results

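The plasma membrane of *Schizosaccharomyces pombe* is energised by the proton pump Pma1 and shaped by eisosomes, and the 4 genes described here belong to these systems. They are *pma1* and its weakly expressed paralogue *pma2*, which encode P-type proton ATPases, and *fhn1* and *pil1*, which encode eisosome proteins. These 4 of the 5113 protein-coding genes on chromosomes I, II and III were chosen by symbol with the peaks of these same lists known. What the lists show at them is therefore given as a description, without tests.

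The data are lists of chromatin immunoprecipitation sequencing (ChIP-seq) peaks for Hap2-GFP and for Arp5-3HA, with 2 replicate lists of each protein. Hap2 was pulled down with an anti-GFP antibody and Arp5 with an anti-HA antibody, both from one strain that carries both tags (labelled Hap2-GFP Arp5-3HA), and cells were grown in rich medium (1X YES). Arp5 is an actin-related subunit of the Ino80 chromatin remodelling complex, and Hap2 is a small protein of the same complex. Every sample carries both tags, a list from an untagged strain was not analysed here, and the 2 input samples were not used.

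A P-type ATPase passes through a phosphorylated state as it moves ions, and Pma1 uses ATP to push protons out of the cell, so that nutrient transporters can draw on the proton gradient. Eisosomes are protein scaffolds under furrow-like folds of the plasma membrane. Pil1, a membrane-bending BAR domain protein, builds the scaffold, and Fhn1, a tetraspan membrane protein, sits in the same membrane domains.

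The lists hold 3758 and 4259 Hap2 peaks and 4206 and 4277 Arp5 peaks on the 3 chromosomes, replicate 1 before replicate 2, with median widths of 230 to 240 bp. A peak is an interval with a summit and a whole-number score. Since its scale is unstated, the score served only for ranks inside a list, where rank 1 is the highest. The lists carry no read counts, so the depth behind a peak is unknown and the absence of a peak does not show absence of the protein. No label says that replicates came from separate cultures. Genes and sequences are those of the RefSeq ASM294v3 annotation. The build of the peak lists is not stated in the sources used, and positions rest on the chromosome names and on the end of chromosome III, which fit that assembly.

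The promoter was taken as 500 bp upstream to 100 bp downstream of the annotated gene start, and the body as the whole annotated gene. All 4 genes have a single coding exon. UTR lengths are spans between the gene ends and the coding span, and introns within them were not looked for. *pma1* (SPAC1071.10C) lies at chrI:3871642-3876111 on the minus strand and is 4470 bp long, with a 5′ UTR of 1432 bp, a coding span of 2760 bp and a 3′ UTR of 278 bp. *pma2* (SPCC1020.01C) lies at chrIII:793179-796301 on the plus strand and is 3123 bp long. It is annotated as partial, without a 5′ UTR, so its gene start is its start codon and its true promoter may lie further upstream. *fhn1* (SPBC1685.13) lies at chrII:525514-528544 on the plus strand and has a 3′ UTR of 1902 bp behind a coding span of only 552 bp. *pil1* (SPCC736.15) lies at chrIII:348559-351165 on the plus strand, with a 5′ UTR of 613 bp, a coding span of 1056 bp and a 3′ UTR of 938 bp. The 5′ UTRs of *pma1*, *fhn1* and *pil1* are longer than those of 99.53, 95.58 and 95.99% of coding genes, whose median is 80 bp.

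The sequences just upstream of the gene starts are shown because Hap2 peaks lay over them at *pma1*, *fhn1* and *pil1* in both Hap2 lists. They run 5′ to 3′ on the strand of the gene, for 250 bases up to the gene start. For *pma2* only the distal 150 of these bases are printed, since the annotation does not separate its promoter from its 5′ UTR. Capitals mark the 51 bases around the mean Hap2 promoter summit, which for *pma2* comes from the 1 list that had a peak there. The intervals are chrI:3876112-3876361 (minus strand) for *pma1*, chrIII:792929-793078 (plus strand) for *pma2*, chrII:525264-525513 (plus strand) for *fhn1* and chrIII:348309-348558 (plus strand) for *pil1*.
pma1: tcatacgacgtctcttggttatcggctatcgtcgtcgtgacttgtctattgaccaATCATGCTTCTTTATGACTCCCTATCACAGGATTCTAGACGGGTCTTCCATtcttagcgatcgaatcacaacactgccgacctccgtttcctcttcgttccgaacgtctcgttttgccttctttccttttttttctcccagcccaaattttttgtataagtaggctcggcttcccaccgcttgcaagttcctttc
pma2: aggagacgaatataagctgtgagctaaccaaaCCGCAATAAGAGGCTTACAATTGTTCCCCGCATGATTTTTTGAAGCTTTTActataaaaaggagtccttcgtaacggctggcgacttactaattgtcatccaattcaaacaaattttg
fhn1: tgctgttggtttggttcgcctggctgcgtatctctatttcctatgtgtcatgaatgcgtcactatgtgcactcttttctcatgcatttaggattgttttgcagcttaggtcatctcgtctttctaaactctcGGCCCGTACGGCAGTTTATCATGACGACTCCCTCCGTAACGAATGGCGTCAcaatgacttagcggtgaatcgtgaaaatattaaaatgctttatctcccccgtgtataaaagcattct
pil1: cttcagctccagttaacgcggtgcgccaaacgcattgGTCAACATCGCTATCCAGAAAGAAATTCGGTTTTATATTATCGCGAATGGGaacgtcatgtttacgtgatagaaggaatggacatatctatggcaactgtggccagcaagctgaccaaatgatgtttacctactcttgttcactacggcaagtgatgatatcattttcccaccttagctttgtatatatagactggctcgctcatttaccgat

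The capitals of *pma1*, *fhn1* and *pil1* are centred at -170, -93 and -188 bp from the gene start, and those of *fhn1* have a GC content of 56.9% against 43.1% at *pma1* and 39.2% at *pil1*. The letters TATAAA, the core of a TATA box, were searched on both strands in the 250 bases upstream of each of 5112 coding genes and were found in 44.4%. They occur at position -14 of *fhn1*, at -182 of *pil1* on the minus strand and at 2 positions of *pma2*, with no match at *pma1*. CAGTCACA, the HomolD box of ribosomal protein promoters, matched none of the 4 members and 2.62% of all promoters. CCAAT, the letters read by CCAAT-binding factors in general, occurred in 35.3% of all promoters. It matched *pma1* (1 site), *pma2* (3 sites) and *pil1* (1 site). At *pma2* the TATAAA site at -93 and the CCAAT sites at -74 and -42 lie past the printed stretch, in bases that may be 5′ UTR. The longest run shared by the capitals of a pair of members was GACTCCCT, found in *pma1* and *fhn1* and, on either strand, in 8 of the 5112 promoters (0.156%). That run was picked after the sequences had been seen. A match is a description of letters and not a binding site.

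Hap2 peaks covered most of the promoter window of the 3 members other than *pma2* (plot of covered shares by gene). At *pma1* they covered 86.67 and 84.83% of the 600 bp in replicates 1 and 2, at *fhn1* 97.83 and 100%, and at *pil1* 63.33 and 80.33%. At *pma2* the Hap2 lists covered 0 and 25%. In 3 of the 4 members a Hap2 peak lay over the promoter in both lists, where 18.6% of all coding genes had one. The single Hap2 lists had a promoter peak at 3 and 4 members, against 24.1 and 26.4% of coding genes.

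Arp5 promoter peaks were fewer at these genes. *pma1* alone had one in both Arp5 lists, 1 of 4 members, and 5.73% of coding genes had one. The single lists each had 2 members with a promoter peak, *pma1* with *pma2* in replicate 1 and *pma1* with *fhn1* in replicate 2, against 9.72 and 9.84% of coding genes. The Arp5 lists covered 31.67 and 26.67% of the *pma1* promoter, 23 and 0% of that of *pma2*, 0 and 43.33% of that of *fhn1*, and 0% of that of *pil1* in both. Hap2 thus covered more of the promoter than Arp5 in each list at *pma1*, *fhn1* and *pil1*, without overlap between lists of the proteins. The mean differences, Hap2 minus Arp5, were 56.58, 77.25 and 71.83 percentage points. At *pma2* the lists did overlap and the mean difference was 1 percentage point. Hap2 promoter peaks were also commoner over all coding genes, with 18.6% having one in both lists against 5.73% for Arp5. The share of coding genes with such an order of the lists was not counted.

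**Figure D1:**
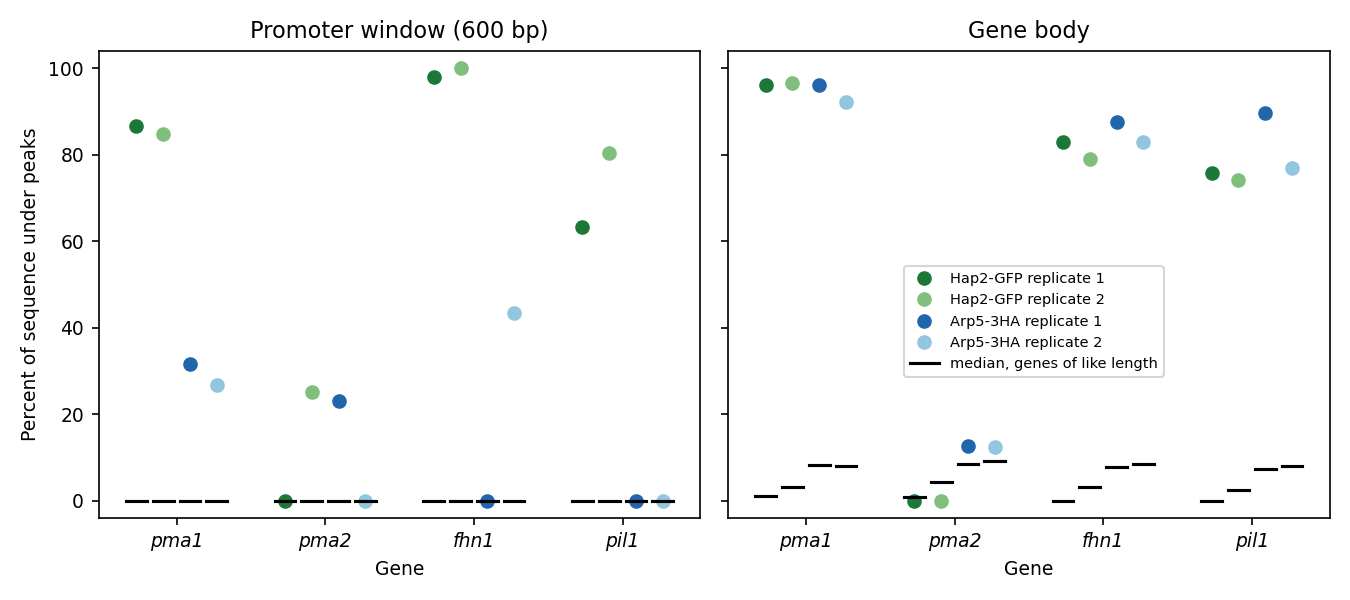
Percent of the promoter window (left) and of the gene body (right) under peaks for each gene, with 1 point per list (Hap2-GFP green, Arp5-3HA blue) and a black bar for the median of coding genes of like length in the same list. Hap2 points lie above Arp5 points over the promoters of *pma1*, *fhn1* and *pil1*, and over the body *pma2* stays at 0 to 12.55% while the others lie at 74.22% or more.

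The Hap2 peak at the *pma1* promoter was among the highest of its lists. In replicate 1 it was 520 bp wide with rank 10 of 3758, and in replicate 2 it was 540 bp wide with rank 30 of 4259. Its summits lay at -175 and -165 bp from the gene start. A further Hap2 peak lay upstream of the window, with summits at -1015 and -1025 bp and ranks 102 and 42, so Hap2 formed a pair of high peaks ahead of the proton pump gene in both lists. Arp5 replicate 2 also had a peak within that upstream interval, 360 bp wide with rank 369 of 4277 and its summit at -1215 bp, and Arp5 replicate 1 had none there. The Arp5 peaks over the same promoter were 190 and 160 bp wide and ranked 2971 of 4206 and 2361 of 4277.

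At *fhn1* the Hap2 promoter peak ranked 253 in replicate 1, where it was 680 bp wide, and 86 in replicate 2, where it was 2220 bp wide. The wider peak of replicate 2 spans an interval that replicate 1 gives as 2 peaks, the other of them 1730 bp wide with rank 76. The Arp5 promoter peak of replicate 2 was 260 bp wide and ranked 1911. At *pil1* the Hap2 promoter peak ranked 1089 and 313, the lowest of the 3 genes in both lists, with widths of 380 and 580 bp.

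The Hap2 promoter summits of the replicates lay 10 bp apart at *pma1*, at *fhn1* and at *pil1*. Among the 949 coding genes with a Hap2 promoter peak in both lists the median distance was 80 bp, and 13.5% had summits within 10 bp. Peak edges lie on a grid of 10 bp in these lists. The weak Hap2 peak at *pma2*, found in replicate 2 only, was 150 bp wide and ranked 3930 of 4259, with its summit at -193 bp.

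**Figure D2:**
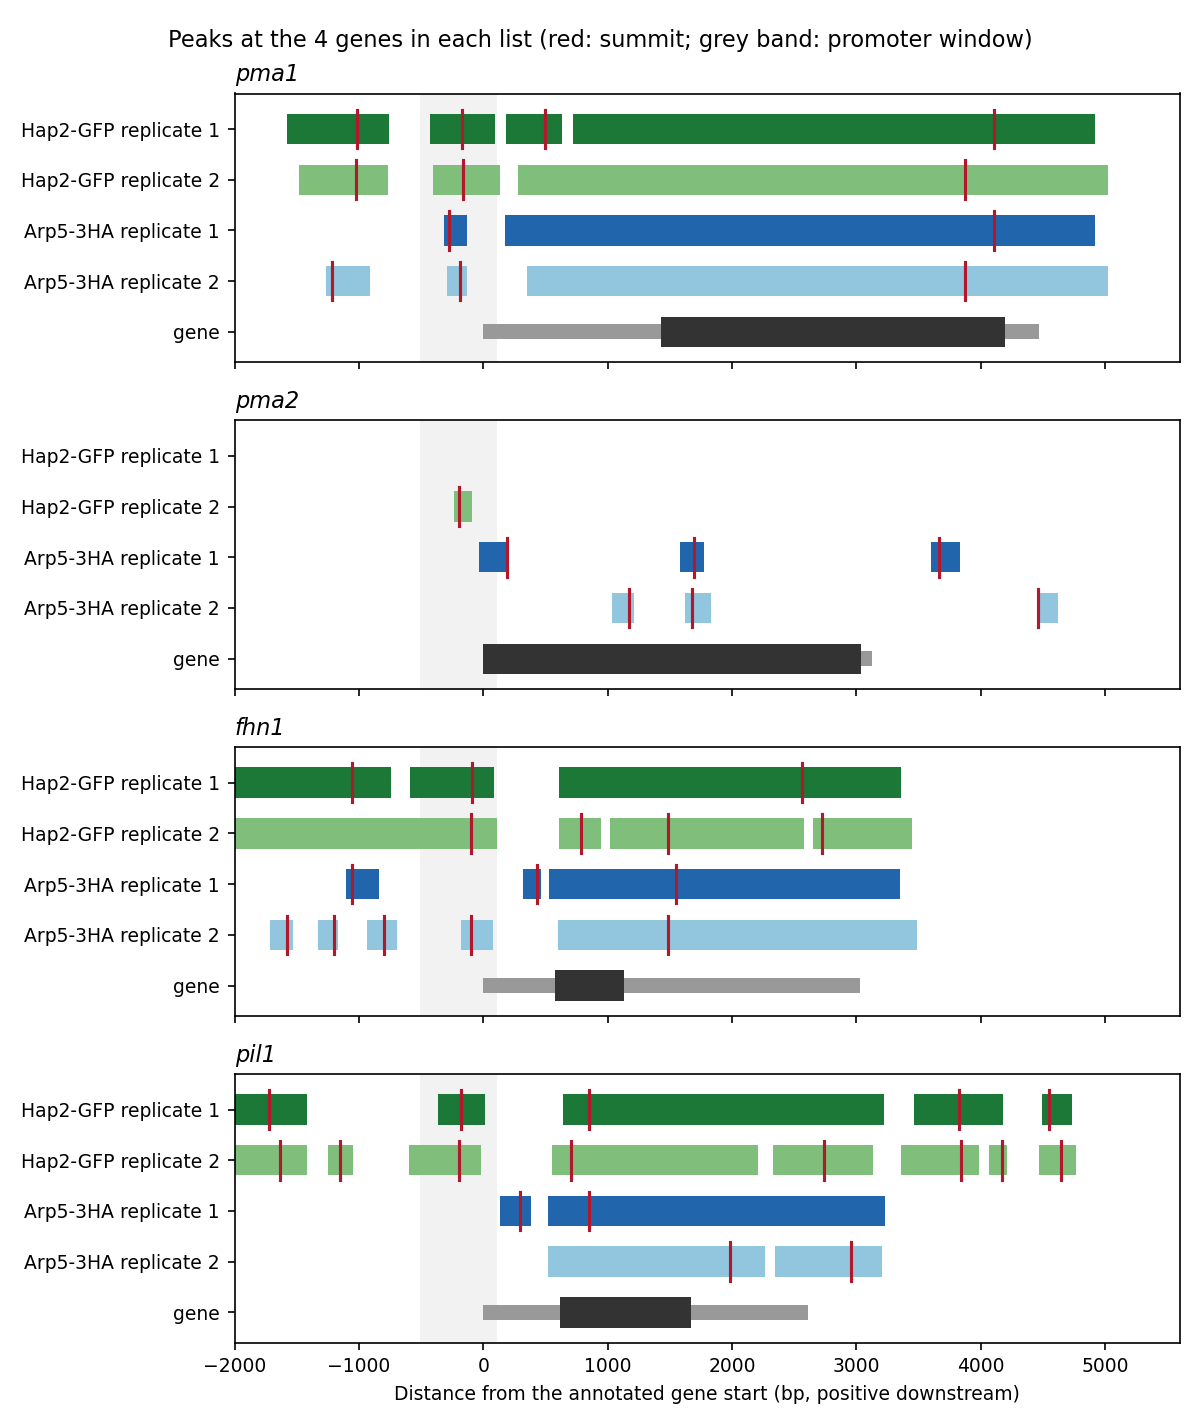
Peaks of each list at the 4 genes against the distance in bp from the annotated gene start. Coloured bars are peaks with a red line at the summit, the thin grey bar is the gene with its coding span in black, and the pale band is the promoter window. Peaks of over 1000 bp lie over *pma1*, *fhn1* and *pil1* in all 4 lists, and these or a further peak run past the gene end, while *pma2* has only short peaks.

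Over the gene body both proteins covered *pma1* almost from end to end, and most of *fhn1* and *pil1* outside their 5′ UTRs. The *pma1* body was under Hap2 peaks for 95.97 and 96.64% and under Arp5 peaks for 96.17 and 92.15% of its length. For *fhn1* the shares were 82.84 and 78.88% for Hap2 and 87.56 and 82.84% for Arp5. For *pil1* they were 75.83 and 74.22% for Hap2 and 89.57 and 76.91% for Arp5. The proteins overlapped in these values at *pma1* and touched at *fhn1*, where Hap2 replicate 1 and Arp5 replicate 2 had equal shares. At *pil1* both Arp5 values lay above both Hap2 values, with a mean difference, Hap2 minus Arp5, of -8.209 percentage points. The nearest lists (75.83% for Hap2 and 76.91% for Arp5) lay close together. Body peaks in both lists were also commoner for Arp5 over all coding genes, at 38.1% against 31.0% for Hap2. The share of coding genes with the order seen at *pil1* was not counted.

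A body peak in both lists was present at 3 of 4 members for Hap2 and at 4 of 4 for Arp5, where 31.0 and 38.1% of coding genes had one. The single Hap2 lists had 3 members each, against 39.9 and 44.4% of coding genes, and the single Arp5 lists had 4 each, against 48.5 and 49.6%. A short peak is enough for such a count, and the covered share separated the members further. In each list, *pma1*, *fhn1* and *pil1* had a larger share of the body covered than 96.9 to 99.2% of coding genes, whose median was 0 in every list. Among the 424 coding genes from 0.8 to 1.25 times as long as *pma1*, none had as large a share in either Hap2 list and 1 had in each Arp5 list.

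The *pma1* body peak was one of the widest in every list. It measured 4200 and 4740 bp in the Hap2 lists and 4750 and 4670 bp in the Arp5 lists, with width ranks of 6 and 5 and of 6 and 6. By score it ranked 152 and 282 in the Hap2 lists against 14 and 9 in the Arp5 lists. The order of promoter and body peaks at *pma1* thus differed between the proteins, since the promoter peak ranked above the body peak in both Hap2 lists and far below it in both Arp5 lists. Hap2 replicate 1 had another body peak, 450 bp wide, at the 5′ end, leaving 2 gaps in the 5′ UTR.

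The *pma1* body peak covered 100% of the coding span and of the 3′ UTR in all 4 lists. It began between -1261 and -711 bp from the start codon, inside the long 5′ UTR, and ended 451 or 551 bp past the gene end. Its summit lay near the end of the coding span, at -86 bp from its last base in both replicate 1 lists and at -316 bp in both replicate 2 lists. Of the 5′ UTR, 87.43 and 89.53% was under Hap2 peaks and 88.06 and 75.49% under Arp5 peaks.

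The eisosome genes differed from *pma1* at the 5′ end. At *fhn1* the run of peaks over the coding span started between -50 and 30 bp from the start codon, with the short 340 bp peak first in Hap2 replicate 2, where the long peak followed at 440 bp. The long peak over *pil1* started between -91 and 29 bp from the start codon. Of the *fhn1* 5′ UTR, Hap2 peaks covered 15.08 and 18.54% and Arp5 peaks 34.66 and 13.34%. Of the *pil1* 5′ UTR, Hap2 peaks covered 1.958 and 9.951% and Arp5 peaks 55.63 and 14.85%. A promoter peak of Hap2 and a body peak were therefore separated by most of the 5′ UTR at both genes in both Hap2 lists. The higher Arp5 replicate 1 values come with a short separate peak inside each 5′ UTR, ranked 1015 at *fhn1* and 2690 at *pil1*.

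The 3′ UTRs of the eisosome genes were also covered. In Hap2 replicate 2 at *fhn1* and in both replicate 2 lists at *pil1*, the long peak ended inside the 3′ UTR and a separate peak of 800 or 860 bp covered the gene end, while elsewhere a single long peak did so. The *fhn1* 3′ UTR was covered for 100 and 96.32% by Hap2 and for 100% by Arp5 in both lists, and the *pil1* 3′ UTR for 100 and 87.21% by Hap2 and for 100 and 91.47% by Arp5. The peaks ran past the gene end by 326 and 416 bp (Hap2) and 316 and 456 bp (Arp5) at *fhn1*, and by 615 and 525 bp (Hap2) and 625 and 595 bp (Arp5) at *pil1*.

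*fhn1* carried the highest body score of the 4 genes in 3 of the 4 lists. Its highest body peak ranked 4 of 4259 in Hap2 replicate 2, and 10 of 4206 and 2 of 4277 in the Arp5 lists. In Hap2 replicate 1 the long *fhn1* peak of 2750 bp ranked 293, below the promoter peak, so the Hap2 lists disagreed on which peak of this gene was higher. In Hap2 replicate 2 the body was split into 3 peaks of 340, 1560 and 800 bp, where the Arp5 lists had single long peaks of 2820 and 2890 bp. The summit of the highest of them lay in the 3′ UTR, 354 bp past the end of the coding span, in Hap2 replicate 2 and Arp5 replicate 2.

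The long *pil1* peak was 2580 bp wide in Hap2 replicate 1 and 2710 bp in Arp5 replicate 1. Both replicate 2 lists gave it as 2 peaks, of 1660 and 800 bp for Hap2 and 1740 and 860 bp for Arp5. The highest body peak ranked 165 and 460 in the Hap2 lists and 49 and 188 in the Arp5 lists. In both replicate numbers *pil1* stood nearer the top of the Arp5 list than of the Hap2 list. At *pma1*, *fhn1* and *pil1* alike the long body peak had a lower rank number in each Arp5 list than in the Hap2 list of the same number. Long body peaks of other genes were not compared in this way.

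**Figure D3:**
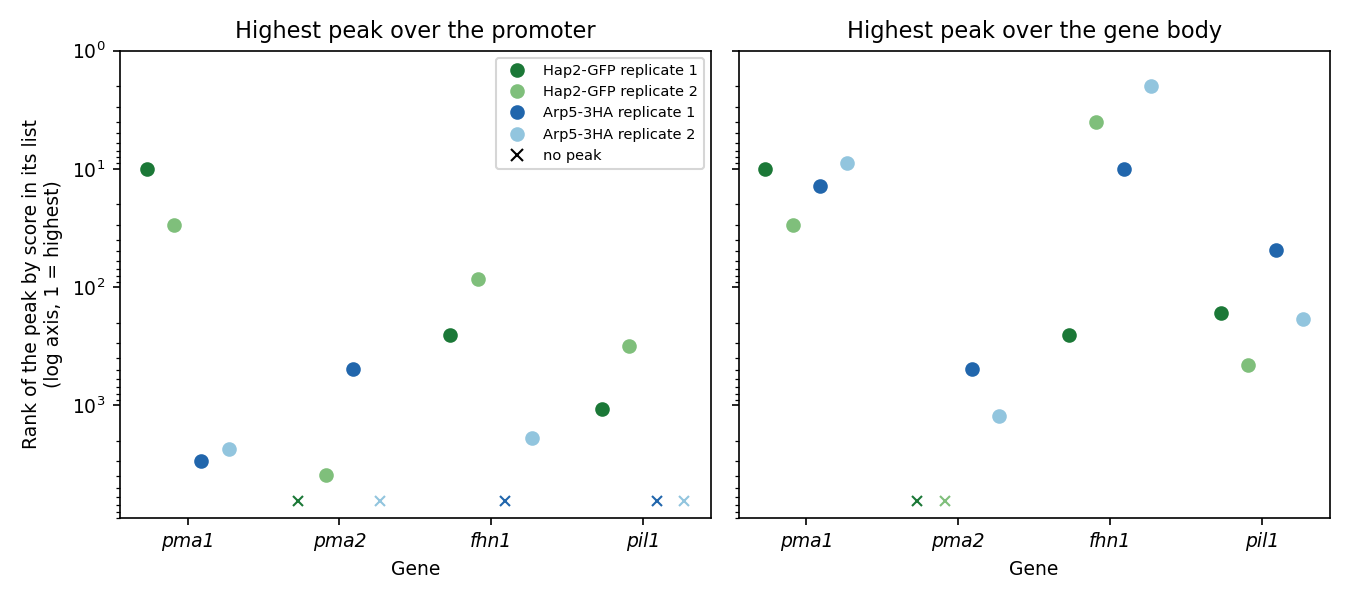
Rank by score of the highest peak over the promoter (left) and the gene body (right) in each list, on a log axis with rank 1 at the top, and crosses where a list has no peak. In the body panel the Hap2 points of *pma1* and the replicate 1 point of *fhn1* are promoter peaks that reach past the gene start. The promoter panel shows Hap2 ranks of 10 and 30 for *pma1* against Arp5 ranks of 2971 and 2361.

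Several positions coincided between the proteins. The *pma1* body summit was the same base in both replicate 1 lists (position 3872006) and another base in both replicate 2 lists (3872236), and the downstream peak end was shared in the same way. The *pil1* body summit was shared by both replicate 1 lists (349406), and the *fhn1* body summit (526996) and promoter summit (525416) were shared by both replicate 2 lists. In all, 2 of the 7 Hap2 replicate 1 peaks at the members shared a summit with Arp5 replicate 1, and 3 of the 10 Hap2 replicate 2 peaks with Arp5 replicate 2. No summit was shared across replicate numbers or between replicates of 1 protein. The same held over the whole lists, where lists of different proteins with the same number shared 15.9 to 17.7% of summits, those with different numbers 1.29 to 1.46%, and replicates of 1 protein 1.52 to 2.45%. Among peaks of 1000 bp or more, lists of the same number shared 33.1 to 39.8% of summits. Lists of different proteins with the same number thus shared positions more often than any other pair of lists, and the part this plays in the match of Hap2 and Arp5 over the members was not tested.

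The paralogues *pma1* and *pma2* were set against each other because they encode like proteins and *pma2* is known as the weakly expressed copy, though expression was not measured in these data. Hap2 covered 95.97 and 96.64% of the *pma1* body and 0% of the *pma2* body in both lists, a mean difference of 96.31 percentage points. Arp5 covered 96.17 and 92.15% of the *pma1* body and 12.55 and 12.49% of the *pma2* body, a mean difference of 81.64 percentage points. The values of the genes did not overlap for either protein, and the pair was chosen for this difference.

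The peaks at *pma2* were short. Arp5 replicate 1 had one of 240 bp across the gene start, ranked 498, and another of 190 bp ranked 1015. Arp5 replicate 2 had one of 180 bp ranked 1227 and another of 210 bp ranked 4198. Only the 190 bp and 210 bp peaks overlapped between the replicates, with summits at 1697 and 1677 bp from the gene start.

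Among the 968 coding genes of like length, 58.8 and 59.4% had a smaller share of the body under Arp5 peaks than *pma2*, and the medians were 8.37 and 9.22%. Under Hap2 peaks those medians were 0.788 and 4.24%. The *pma2* body thus lay near the middle of genes of its size for Arp5 and at 0 with many others for Hap2, while *pma1* lay at the top for both.

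The protein sequences aligned over 919 residues, the whole of Pma1, with 730 identical (79.43%), and Pma2 carries 78 further residues ahead of the aligned stretch. The coding bases were identical at 70.69% of aligned positions, with 80.09, 89.88 and 42.11% at codon positions 1, 2 and 3. The codons around the phosphorylated aspartate, which every P-type ATPase needs, show this pattern and were chosen because the protein motif DKTGTLT is the signature of the family. The stretch lies at chrI:3873513-3873575 (minus strand) in *pma1* and chrIII:794547-794609 (plus strand) in *pma2*. Capitals mark the 15 of 63 bases that differ.
pma1: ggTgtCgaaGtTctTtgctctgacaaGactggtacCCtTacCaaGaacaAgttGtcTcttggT
pma2: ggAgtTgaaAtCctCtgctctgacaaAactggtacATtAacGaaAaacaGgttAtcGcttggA

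In *pma1* this stretch lay under the long peak in all 4 lists, and in *pma2* no list had a peak over it. The longest run of identical bases in the aligned coding sequences was 23 bases, and no 50-base word of either gene occurred elsewhere on the 3 chromosomes. The read length and the treatment of shared reads are not stated in the sources used, and whether the paralogues shared reads was not tested. Of the 919 aligned codons, 100% lay under peaks in *pma1* in every list, against 0 and 0% in *pma2* for Hap2 and 6.855 and 14.15% for Arp5.

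**Figure D4:**
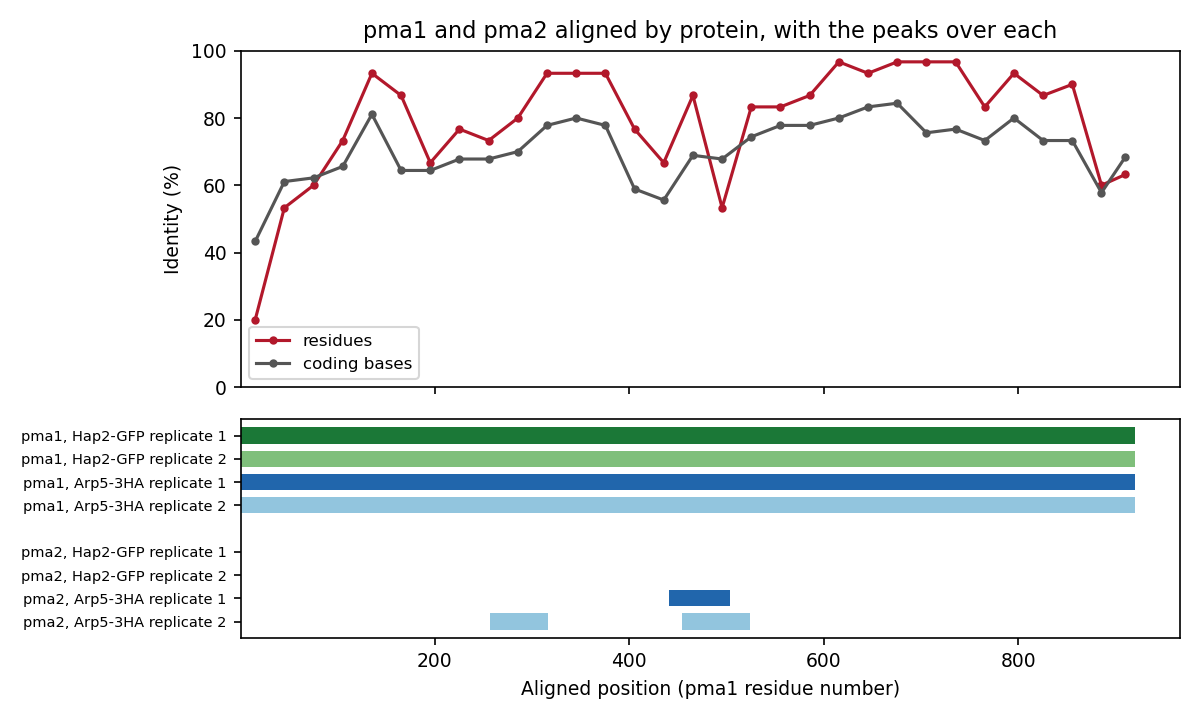
Identity of *pma1* and *pma2* along their alignment in windows of 30 residues (top, residues red and coding bases grey) and the aligned codons under peaks in each list (bottom, *pma1* rows above *pma2* rows). The *pma1* rows are filled throughout, and the *pma2* rows hold only 3 short Arp5 peaks.

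GC content moved with the covered share in these lists and differs between the members. The coding GC was 45.69% in *pma1*, 43.13% in *pma2*, 50% in *fhn1* and 52.75% in *pil1*, against a median of 39.62% over coding genes, and the third-position GC was 37.93, 32.54, 55.43 and 61.08%. Over all coding genes the mean covered share of the body was 44.9% in both Hap2 lists and 48.7 and 47.9% in the Arp5 lists at a coding GC of 45 to 50%, and 11.5 and 12.9% (Hap2) and 15.7 and 16% (Arp5) at 40 to 45%. The boundary at 45% falls between *pma1* and *pma2*.

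Genes within 1 percentage point of each member in coding GC give a closer comparison. *pma1* had a larger covered share than 97.1 and 98.1% (Hap2) and 97.1 and 96.6% (Arp5) of 207 such genes. *pma2* had 0% for Hap2, against medians of 8.02 and 11.7% over 535 such genes, and lay above 47.9 and 43% of them for Arp5. *fhn1* lay above 78.3 and 70% (Hap2) and 78.3 and 66.7% (Arp5) of 60 such genes. *pil1* lay above 15.4 and 30.8% (Hap2) and 46.2 and 23.1% (Arp5) of only 13 such genes. Beside genes of like GC, *pma1* therefore stood apart, *fhn1* was in the upper range and *pil1* was below the middle.

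Within *fhn1* and *pil1* the 5′ UTR had both a smaller covered share and a lower GC content than the 3′ UTR. At *pma1* the covered parts were not always the GC-rich ones. The *fhn1* 5′ UTR, mostly outside peaks, has a GC content of 27.2% and the covered 3′ UTR 34.5%. The *pil1* 5′ and 3′ UTRs have 28.9 and 32.3%. The *pma1* 5′ UTR has 32.3% and was mostly covered, as was its 3′ UTR of 25.2%. The part of GC content in the covered shares was not tested.

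**Figure D5:**
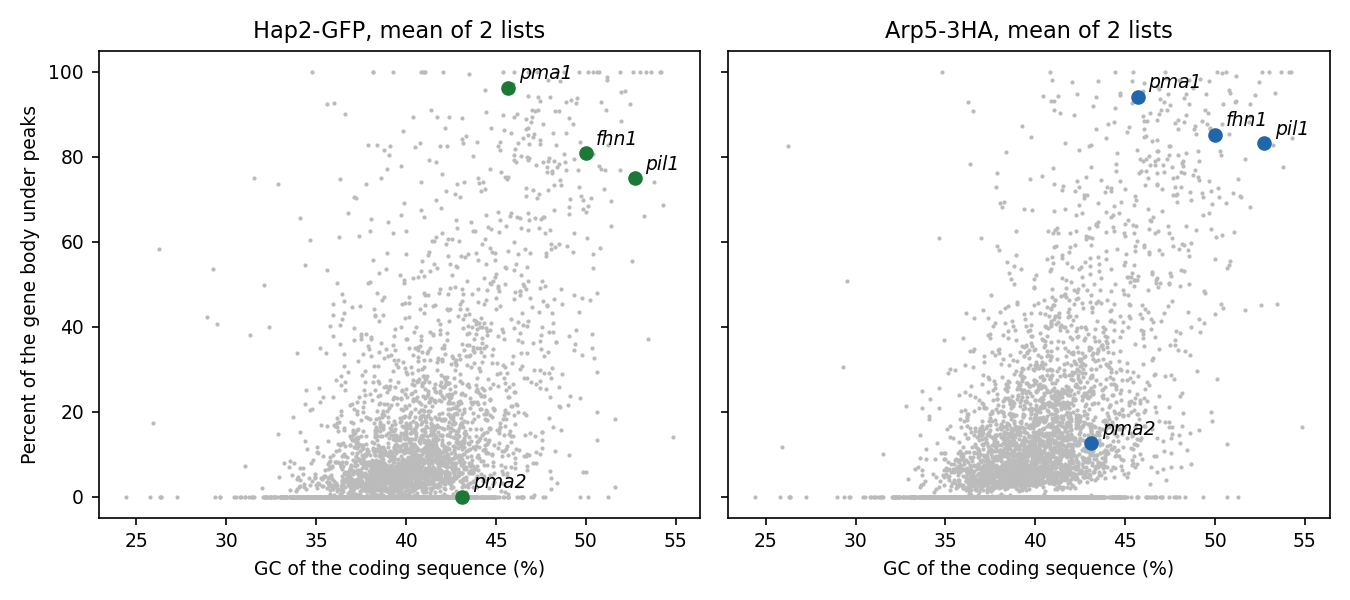
Percent of the gene body under peaks, as the mean of the 2 lists of a protein, against the GC content of the coding sequence for all coding genes (grey) and the members (coloured), with Hap2-GFP on the left and Arp5-3HA on the right. Covered shares are larger at higher GC, with *pma1* near the top of genes of its GC and *pma2* at 0% for Hap2.

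Peaks at the members also took in neighbouring transcripts. The long *pma1* peak reached 259 or 359 bp into the next coding gene, SPAC1071.09C, which runs in the same direction, and into the downstream antisense lncRNA gene SPNCRNA.3727. SPNCRNA.92, antisense at the 5′ end of *pma1*, lay in part under body or promoter peaks in every list, though not under the long peak of Hap2 replicate 1. SPNCRNA.3728, upstream in sense, lay in part under the promoter peaks only. At *fhn1* the wide Hap2 promoter peak of replicate 2 covered 2209 of the 2339 bp of SPNCRNA.1367, an upstream lncRNA in sense that runs into the gene, and replicate 1 covered 680 bp of it under the peak it shares with the promoter. Inside *fhn1* the annotation places SPNCRNA.4755 and SPNCRNA.134 in antisense and SPNCRNA.133 in sense, all mostly under the body peaks. Downstream, the lncRNA SPNCRNA.4756 was reached in all lists, and the convergent gene *vid27* was reached by 71 bp in Hap2 replicate 2 and 111 bp in Arp5 replicate 2.

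At *pil1* the antisense SPNCRNA.6811 inside the gene lay under the body peaks for 1432 and 1522 bp (Hap2) and 1525 and 1525 bp (Arp5) of its 1525 bp. SPNCRNA.1133 lies downstream in the opposite direction and was reached for 571 and 481 bp by Hap2 and 581 and 551 bp by Arp5. SPNCRNA.6808 and SPNCRNA.6810, antisense at the promoter, were reached by Hap2 promoter peaks in both lists and by no Arp5 peak that covers *pil1*. The Hap2 peaks took in 163 and 393 of the 1045 bp of SPNCRNA.6808, and 216 and 186 of the 216 bp of SPNCRNA.6810. No gene shared a peak with *pma2*. ChIP-seq peaks have no strand, so *pma1*, *fhn1* and *pil1* and the transcripts inside them cannot be told apart.

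Other genes listed for the eisosome and its lipid signalling were covered less. Of 6 besides *fhn1* and *pil1*, 2 had a body peak in both Hap2 lists and 4 in both Arp5 lists, against 31.0 and 38.1% of coding genes. *sle1*, an eisosome component, had 14.6 and 7.28% of its body under Hap2 peaks and 26.1 and 21.8% under Arp5 peaks. *syj1*, an inositol phosphatase of the synaptojanin family, had 14 and 14.6% under Hap2 peaks and 31.2 and 23.3% under Arp5 peaks. *slm1* and *tax4* (symbol irs4 in the annotation) had body peaks in both Arp5 lists only, and *tax4* a promoter peak in both Hap2 lists. *meu14* and *ksg1* had none in any list. The median covered share of the 6 was 0 and 3.42% for Hap2 and 18.3 and 15.6% for Arp5, against 0% over all coding genes in each list. Their lengths run from 1164 to 4814 bp, where the median coding gene has 1773 bp, and the part of length was not tested. None of the 6 reached the covered share of *pil1* or *fhn1* in any list.

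Of 8 other P-type ATPase genes listed for comparison, 4 had a body peak in both Hap2 lists and 5 in both Arp5 lists. The shares of all coding genes were 31.0 and 38.1%, and the list was not checked for completeness. *ccc2*, a copper pump, had the largest covered share in each Arp5 list, 40.9 and 53.5%, with 18 and 10.8% for Hap2. *pmr1*, a Golgi calcium and manganese pump, had 16 and 4.73% for Hap2 and 20.5 and 16.6% for Arp5, and *dnf1*, a phospholipid flippase, 5.98 and 11.8% for Hap2 and 12.4 and 18.1% for Arp5. *cta3* had body and promoter peaks in both Hap2 lists, *dnf2* a promoter peak in both Hap2 lists with a body peak in both Arp5 lists, and *cta4* a body peak in both Arp5 lists. *cta5* and *neo1* had neither in both lists of a protein. The medians of the 8 were 5.23 and 2.37% for Hap2 and 11.6 and 12.6% for Arp5, against 0% over all coding genes in each list. These 8 genes are 3325 to 6467 bp long, where the median coding gene has 1773 bp. Medians over the 424 coding genes of like length to *pma1* were 0.976 and 3.09% for Hap2 and 8.33 and 8% for Arp5. The part of gene length in these counts and shares was not tested.

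The V-type proton ATPase, which acidifies the vacuole, gave a second proton pump for comparison. Of 14 genes listed for it, *vma1* had a body peak in both lists of each protein. *vma2*, *vma3* and *vma11* had one in both Arp5 lists only. This makes 1 of 14 for Hap2 and 4 of 14 for Arp5, against 31.0 and 38.1% of coding genes. None had a promoter peak in both lists of a protein, against 18.6% of coding genes for Hap2 and 5.73% for Arp5. Medians over the 14 were 0 and 0% for Hap2 and 0 and 4.61% for Arp5, against 0% over all coding genes. *pma1* had a larger covered share than each of the 30 listed genes in every list.

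Each member's pattern was also compared with that of 4266 coding genes of 1000 bp or more, as the Euclidean distance over 8 values, the covered shares of promoter and body in each list. Nearest to *pma1* were *fba1* (fructose-bisphosphate aldolase), *tbp1* (TATA-binding protein) and *tdh1* (glyceraldehyde-3-phosphate dehydrogenase), at distances of 17.9, 21.4 and 23.1 percentage points, all with 96.4 to 100% of the body covered in every list. Nearest to *pma2* were *fmp40*, *tcb1* and *cdc6* at 16.3, 18.7 and 22.4 percentage points, with covered shares of the body of 0 to 22.1%. Nearest to *fhn1* were *rds1*, *lys4* (homocitrate synthase) and *eno101* (enolase) at 25.4, 25.6 and 32.9 percentage points. Nearest to *pil1* were *gas2* (a glucanosyltransferase of the cell wall), *ole1* (acyl-CoA desaturase) and *hxk2* (hexokinase) at 20, 20.1 and 21.1 percentage points. None of the members was among the 3 nearest genes of another.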

How the data were processed

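ChIP-seq peaks of Hap2-GFP and Arp5-3HA (2 replicates each) were read from the lists the authors deposited, grouped by protein and replicate number as labelled. The submitters' processing notes list Trimmomatic 0.36 and BWA 0.7.17 beside MACS2 2.1.2 and deepTools. Thresholds, read filters, the input behind each list and the genome build are not stated in the sources used. The score of a peak is a whole number that the authors deposited with no stated scale, and it was used only as a rank. The deposited fields for enrichment, p and q hold 0 throughout. Depth is unknown, so no interval could be given.

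Peaks on chromosomes I, II and III were overlapped (at least 1 bp) with RefSeq ASM294v3 genes. In all lists the final peak of chromosome III ends at the last base of that chromosome in the assembly. Peaks on other sequences were left out. The members and gene lists were chosen with earlier results of these data known. Named genes are the members, genes under a peak that covers a member, listed genes with a peak in both lists of a protein, and the 3 nearest by pattern. From the P-type list *spf1* was left out after the annotation was seen, since it is annotated as a Set1C subunit, and vma12 is a synonym of *vph2*. No test was made. Overlap and coverage steps were tested on simulated data. Alternatives were the union of replicates, a minimum overlap of 100 bp, the higher-scoring peaks of each list, other promoter windows, the coding span and single replicates. Python 3.11.15, numpy 2.4.6, Biopython 1.88 and matplotlib 3.10.9 were used.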

Additional observations from a re-analysis of the deposited data

How the results depend on the processing

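Of 34 alternative values for 6 results, 25 stayed close to the values reported and 9 moved. Counts were judged by their ratio, so that 4 against 3 members passed as close. A difference in cover was close if it changed by less than the standard deviation of the 2 lists, which was small. The tally depends on these unlike rules. The Arp5 promoter count was the least stable. It was 1 of 4 members as reported, 3 when a peak in either list was enough, 0 in the higher-scoring peaks of each list, 2 with a window of 1000 bp upstream to the gene start (*pma1* and *fhn1*) and 3 around the start codon (*pma1*, *fhn1* and *pil1*). With single replicates it was 2 and 2. The start codon window falls on the long Arp5 body peaks of *pma1*, *fhn1* and *pil1* alike. The Hap2 promoter count was 3 to 4 with single replicates, and the body counts were 3 (Hap2) and 4 (Arp5) under each alternative. The difference between *pma1* and *pma2* in body cover kept its direction. For Hap2 it was 100 percentage points over the coding span, and with single replicates 95.97 to 96.64. For Arp5 it was 87.11 over the coding span, 85 in the higher-scoring peaks, and with single replicates 79.66 to 83.62. No paired analysis was possible because the results come from no test to which a replicate block could be added. Unknown depth limits what a missing peak, such as that of Hap2 over the *pma2* body, can show, and long peaks are split or joined differently between replicates.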
